A study of Mus musculus with 24 samples.

Results

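Epithelial cells from the colon of 3 KO mice, collected 8 weeks after chimerism, were compared with colonic epithelium from 5 WT mice. The control group pooled 2 irradiated and 3 non-irradiated WT mice, so the comparison took up 8 of the 24 libraries of the series. All genes were members, and 19145 of the 24421 genes in the deposited table passed the filter on low values (at least 10 normalised reads in at least 2 of the 12 colon libraries) and were tested. Every mouse was C57BL/6 and aged 8 to 14 weeks, and every library came from cells sorted as positive for Villin-tomato, a fluorescent reporter named after the epithelial gene villin, and negative for CD45, the surface protein of leukocytes. The KO late group (mice 49, 50 and 57) and the irradiated WT group (mice 59 and 61) were taken 8 weeks after chimerism, and the non-irradiated WT group (mice 72, 73 and 75) was untreated. The labels call the mice only KO or WT. The title of the series places a deletion of the IL-10 receptor alpha chain in gut macrophages and names IL-23 and IL-22. Donor and recipient genotypes of the chimeras are not given in the sources used here, and the irradiated recipients may keep part of their own immune cells. Since the sorted epithelium should exclude macrophages, Il10ra cannot check the KO label here: it was read at 31, 25 and 14.8 in KO and 9.9, 20.8, 10.2, 4.7 and 20.1 in WT. A KO early group (4 mice, 2 weeks after chimerism) and the ileum of the same mice are used below only where a value is set beside the colon.

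IL-10 restrains intestinal macrophages, and macrophages that cannot sense it produce IL-23. IL-23 drives lymphoid cells to release IL-22, whose receptor sits on epithelial cells and signals through the transcription factor STAT3. The response known from textbooks includes the Reg3 lectins, calprotectin (S100a8 and S100a9), lipocalin and chemokines that call in neutrophils. Interferon-gamma, made by T cells and natural killer cells, acts on the same epithelium and raises the guanylate-binding proteins and immunity-related GTPases that defend cells against intracellular microbes.

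Values are normalised read counts as deposited, and a log2 difference is KO late minus WT on log2(value + 1), given ± its standard error (SE). Values of KO late mice stand in the order 49, 50, 57 and those of WT mice in the order 59, 61, 72, 73, 75. A gene was called when its limma p-value, adjusted by Benjamini-Hochberg over all 19145 genes, was below 0.05. Nothing in the labels says more of the replicates than that they are different mice.

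Before any gene is read, the WT libraries have to be described, since they were not alike. The first principal component of the 8 libraries held 67.6% of their variance and placed WT mice 59, 72 and 73 at -74.8, -91.9 and -96.0, but WT mice 61 and 75 at 17.7 and 43.4, on the side of KO mice 49, 50 and 57 at 80.3, 98.7 and 22.5. WT mice 61 and 75 came from different control groups (irradiated and non-irradiated). Reads from olfactory and vomeronasal receptor genes, which gut epithelium is not known to use, were counted in RPM (reads scaled to the library total without the ribosomal transcript Rn45s). They stood at 207, 548, 202, 206 and 634 RPM in the 5 WT libraries and at 996, 967 and 702 RPM in the KO libraries. The groups did not overlap in this measure (difference of means 529 RPM, two-sided exact permutation test over 56 splits, p = 0.0357). KO against WT was not the most extreme split: WT mice 59, 72 and 73 against all other libraries differed by more. The part of these reads in the gene results was not tested directly; a fit with their log2 level as a covariate is given beside the results below. Depth was 8.32 to 15.6 M recovered reads a library, and Rn45s took 0.0642 to 1.43% of reads in KO and 0.105 to 20.0% in WT.

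**Figure D1:**
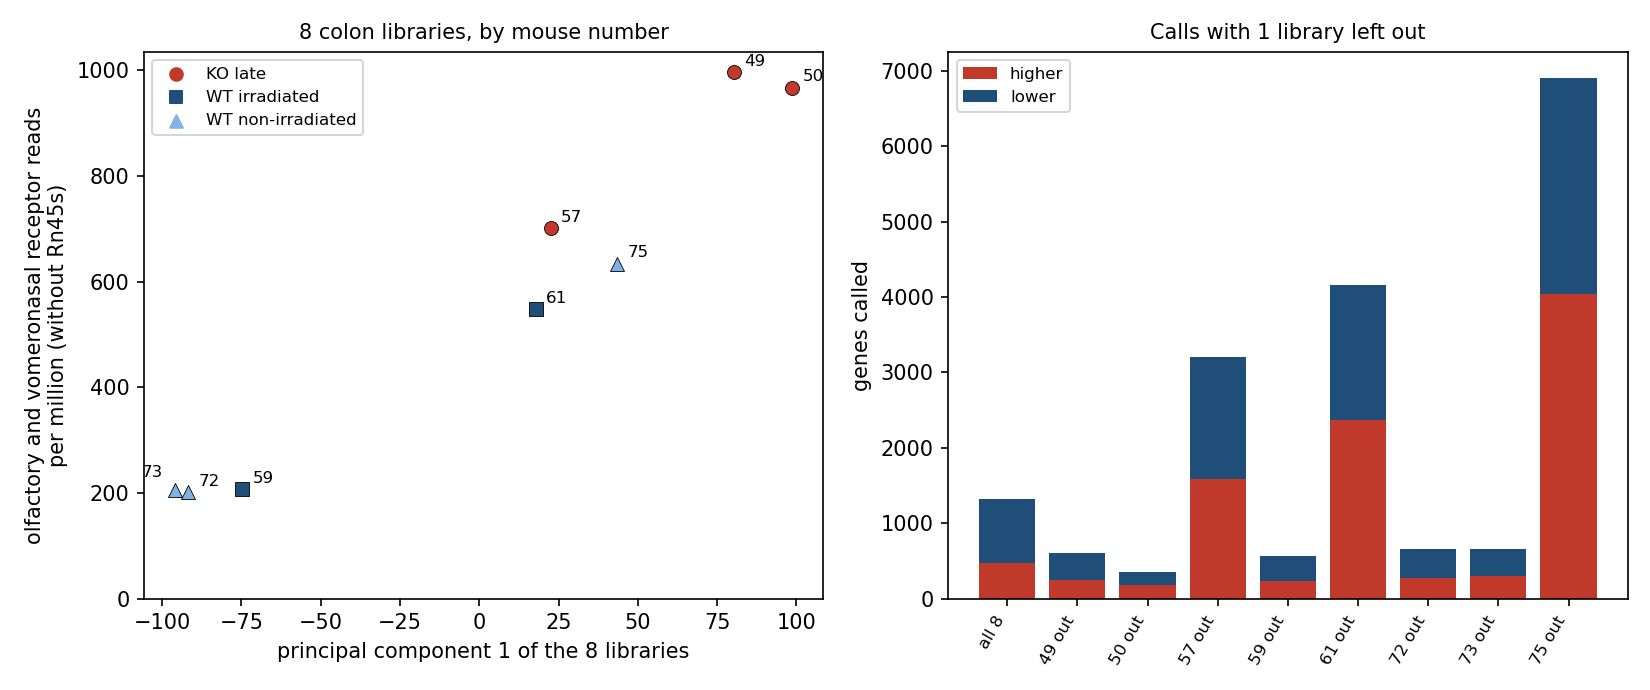
Left, each of the 8 colon libraries by its first principal component (x axis) and its olfactory and vomeronasal receptor reads in RPM (y axis). In receptor reads WT mice 61 and 75 lie between the other 3 WT mice and the KO mice. On the component WT mouse 75 (43.4) lies beyond KO mouse 57 (22.5). Right, genes called higher (red) and lower (blue) in KO late with all 8 libraries and with each library left out; the count lies between 359 (without KO mouse 50) and 6911 (without WT mouse 75).

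With all libraries, 1321 genes were called (6.9% of those tested), 473 higher in KO late (2.47%) and 848 lower (4.43%). The 3 KO and 5 WT values did not overlap for 1040 genes that were higher in KO (5.43% of those tested) and for 2009 that were lower (10.5%). Of the 1321 called genes, 1216 had no overlap. The 10 higher and 10 lower genes named for the largest change were picked among these. The higher were S100a8, Clca4b, S100a9, Cxcl2, Reg3g, Cxcl5, Sprr2h, Reg3b, Cxcl3 and Lrg1. The lower were Mptx1, Ang4, Sycn, Sult1a1, Prss23, Efna3, Clps, Slc37a2, Hao2 and Tgm3. Separation of KO from WT values was a condition of that pick, so where it is described below it is not a separate result. The count of calls depended on single libraries. Leaving out a KO mouse (49, 50 or 57) gave 607, 359 or 3208 calls. Leaving out a WT mouse (59, 61, 72, 73 or 75) gave 565, 4163, 652, 660 or 6911. Leaving out WT mice 61 and 75 together gave 9888 calls, among them all 1321, while keeping only those 2 as controls gave 222, of which 213 were among the 1321 (153 higher and 60 lower). Without WT mice 61 and 75, 5302 of 19002 genes were higher and 4586 lower, and without KO mouse 57 as well 5633 and 5352 of 18947. Without WT mouse 75 alone it was 4040 and 2871 of 19055, and without WT mouse 61 alone 2370 and 1793 of 19110. Without KO mouse 57 alone it was 1590 and 1618 of 19113. Without KO mouse 49 or 50 it was 248 and 359 of 19046 or 175 and 184 of 18964. Without WT mouse 59, 72 or 73 it was 236 and 329, 274 and 378 or 298 and 362. With irradiated WT as the only control it was 123 and 74 of 19145, and with non-irradiated WT 196 and 280. With the receptor covariate it was 219 and 45, and with only WT mice 61 and 75 as controls 161 and 61 of 19020. List counts given below are to be set beside these numbers, and those with all libraries beside 2.47% and 4.43%. With the receptor reads as a covariate, 264 genes were called and 186 of the 1321 remained (143 higher and 43 lower). A core of 117 genes, 85 higher and 32 lower, was called in each of the 25 settings tried, these included; where a gene below is said to be called in every setting, it is 1 of these.

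**Figure D2:**
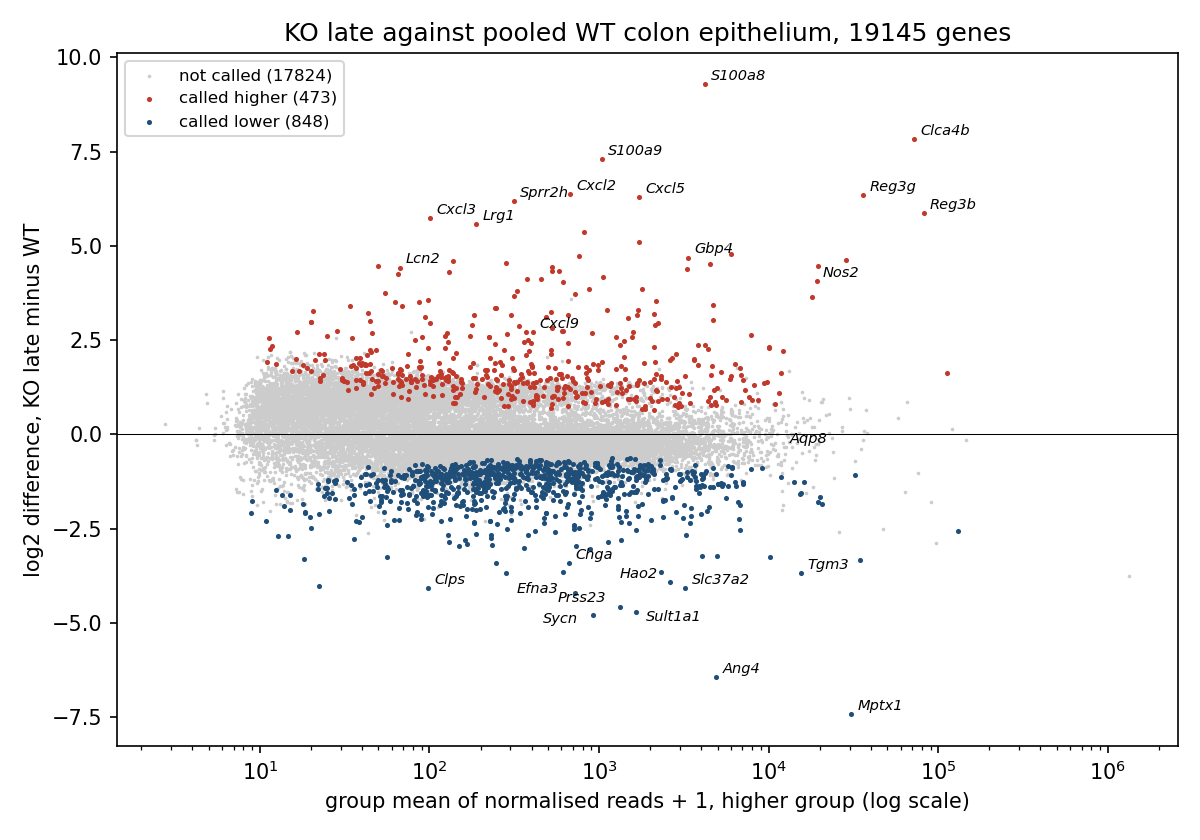
Each point is 1 of the 19145 tested genes, placed by the mean normalised reads + 1 of the higher group (x axis, log scale) and by its log2 difference, KO late minus WT (y axis); red points were called higher (473) and blue points lower (848). S100a8 and Clca4b lie highest, and Mptx1 and Ang4 lowest among the named genes.

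Genes of the antimicrobial and IL-22 response rose together. Of 32 listed genes that were tested, 18 were called higher and 1 (Reg4) lower, against 2.47% and 4.43% of all genes, and the median log2 difference of the list was 1.65, against -0.02 over all genes. S100a8 and S100a9, the subunits of calprotectin, which binds zinc and manganese away from bacteria, led by fold. S100a8 was read at 1416, 6615 and 4549 in the KO mice and at 0.8, 28.3, 2.5, 3.1 and 6.4 in WT mice. It was scarce in every WT library and abundant in every KO library, a log2 difference of 9.28 ± 1.28 (SE) with an adjusted p of 0.000846. S100a9 stood at 463, 1366 and 1287 in KO and 0, 34.2, 2.5, 4.7 and 9.6 in WT (log2 difference 7.30 ± 1.33 (SE), adjusted p = 0.00553). The highest WT value of both genes was that of mouse 61, and S100a9 was not called when WT mice 61 and 75 were the only controls.

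The Reg3 lectins, secreted antibacterial proteins of the mucosa, rose with them. Reg3b was read at 25180, 71601 and 149370 in KO late and at 701, 950.1, 758, 929.6 and 3606 in WT. Every KO value was several times the highest WT value, which came from mouse 75, and the log2 difference was 5.86 ± 0.66 (SE) (adjusted p = 0.000206). Reg3g rose from 399 ± 225 (SD, n = 5) to 36125 ± 24388 (SD, n = 3), a log2 difference of 6.35 ± 0.65 (SE) (adjusted p = 8.61e-05). Both were called in every setting. Reg4, a related lectin of secretory cells, moved the other way, from 1692 ± 842 (SD, n = 5) to 347 ± 35.6 (SD, n = 3) (log2 difference -2.16 ± 0.41 (SE), adjusted p = 0.00735). Reg3b and Reg3g are close relatives, and reads shared between them could be split by the counting.

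Other members rose as well. Lcn2, lipocalin, which captures bacterial siderophores, was at 35.9, 64.1 and 97.6 in KO and at 0.8, 2.2, 1.3, 1.6 and 4.8 in WT (log2 difference 4.42 ± 0.64 (SE), adjusted p = 0.00127), few reads in every library. The KO values stood clear of the WT values in this gene and in the next 3. Lrg1, an acute-phase glycoprotein, was at 61.9, 137 and 362 against 3.3, 1.5, 5.1, 0 and 3.2 (5.57 ± 0.88 (SE), adjusted p = 0.00213). Nos2, the inducible nitric oxide synthase, did not overlap between groups: 14607, 14672 and 28349 in KO and 833, 879, 1712, 1096 and 1142 in WT (4.06 ± 0.40 (SE), adjusted p = 6.55e-05). Steap4, a metalloreductase, went from 154 ± 26.7 (SD, n = 5) to 3289 ± 1029 (SD, n = 3) (4.38 ± 0.34 (SE), adjusted p = 2.11e-05). Plet1, a surface protein of epithelial progenitors and wounds, went from 1164 ± 435 (SD, n = 5) to 28671 ± 11876 (SD, n = 3) (4.62 ± 0.39 (SE), adjusted p = 3.63e-05), but reads of Plet1 and its antisense partner Plet1os cannot be told apart unless strand was used in counting, which the sources used here do not say. Slpi, a leukocyte protease inhibitor, rose by 4.43 ± 0.62 (SE). Of the 18 called, 13 stayed called with any 1 library left out, 15 with only WT mice 61 and 75 as controls, 10 with the receptor covariate and 7 in every setting: Lrg1, Nos2, Plet1, Reg3b, Reg3g, Slpi and Steap4.

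**Figure D3:**
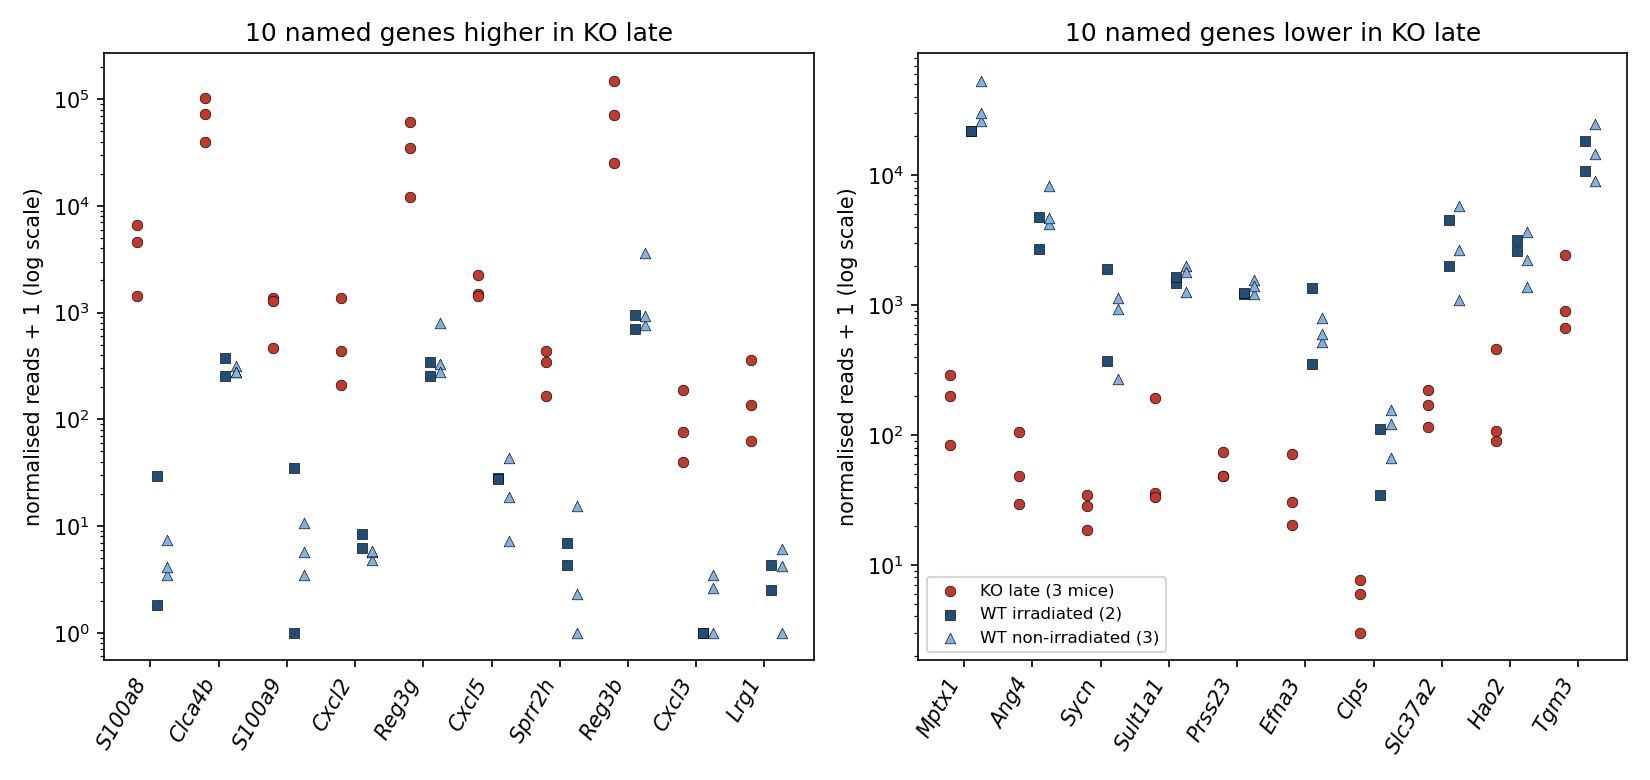
Normalised reads + 1 (y axis, log scale) in each library for the 10 named genes with the largest rise (left) and the largest fall (right); red circles are KO late, dark squares irradiated WT and light triangles non-irradiated WT mice. The 20 genes were picked among genes whose KO and WT values do not overlap.

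Several textbook members of the same response were not called. Saa1 was at 6475, 10064 and 9058 in KO and 12984, 7559, 13636, 17663 and 10620 in WT (log2 difference -0.52 ± 0.32 (SE), adjusted p = 0.23). Saa3 stood at 80.5, 44.1 and 89.8 against 28, 26, 49.7, 37.3 and 44.2 (0.91 ± 0.34 (SE), adjusted p = 0.0778). Fut2, the fucosyltransferase that decorates the mucosal surface, was at 1469, 2204 and 3881 against 1731, 904, 1740.5, 1676 and 906 (0.81 ± 0.36 (SE), adjusted p = 0.116), and Duox2, a hydrogen peroxide-producing oxidase, at 12332, 13629 and 26958 against 15409, 6888, 18367, 13780 and 10352 (0.43 ± 0.39 (SE), adjusted p = 0.407). In each of these genes the KO and WT values overlapped. Nox1, another oxidase of colonic epithelium, was called: it was at 1220.1, 609 and 921 in KO and 257, 248, 363, 247 and 146 in WT (1.86 ± 0.30 (SE), adjusted p = 0.00225), in every setting. Aoc1, a histamine-degrading oxidase, fell from 2019.7 ± 639 (SD, n = 5) to 404 ± 61.3 (SD, n = 3) (-2.28 ± 0.29 (SE), adjusted p = 0.000482), also in every setting.

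Chemokines that draw neutrophils through the receptor CXCR2 rose together. Of 5 tested, 4 were called higher and none lower, beside 2.47% and 4.43% of all genes. Cxcl5 was read at 1483, 2259 and 1439 in KO late and 27.2, 26.8, 42, 6.2 and 17.7 in WT, with no overlap (log2 difference 6.30 ± 0.91 (SE), adjusted p = 0.0012). Cxcl2 stood at 207, 1382 and 439 against 7.4, 5.2, 3.8, 4.7 and 4.8 (6.37 ± 0.83 (SE), adjusted p = 0.000507). Cxcl1 stood at 194, 982 and 404 against 10.7, 23.8, 42, 10.9 and 26.5 (4.35 ± 0.71 (SE), adjusted p = 0.00244). In both, mouse 50 was the highest and mouse 49 the lowest of the KO mice. Cxcl3 was at 38.4, 186 and 75 in KO and at 0 in 3 of the 5 WT libraries (0, 0, 2.5, 0 and 1.6). Its log2 difference was 5.73 ± 1.12 (SE) (adjusted p = 0.00808), and it was not called without KO mouse 50 (adjusted p = 0.064) or with WT mice 61 and 75 as the only controls. Cxcl2 alone of the 4 was called in every setting; the receptor covariate left Cxcl1, Cxcl3 and Cxcl5 without a call.

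Cxcl1, Cxcl2 and Cxcl3 lie close together on chromosome 5, and their promoters show a feature they share. Each of the 3 RefSeq promoters (GRCm38.p6, from 250 bases before to 50 after the transcription start) holds the kappaB consensus, the letters bound by NF-kappaB, matched on each strand at starts 1 base apart. The 100 bases around it are shown 5′ to 3′ on the gene's strand, from 120 to 21 bases before the start, because they show the site that the 3 genes share, with the matching letters in capitals.
Cxcl1, chr5:90891125-90891224, plus strand: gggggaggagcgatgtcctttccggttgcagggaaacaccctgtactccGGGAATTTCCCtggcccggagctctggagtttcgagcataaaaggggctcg
Cxcl2, chr5:90903779-90903878, plus strand: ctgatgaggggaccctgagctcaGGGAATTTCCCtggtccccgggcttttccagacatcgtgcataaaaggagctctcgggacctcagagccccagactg
Cxcl3, chr5:90785981-90786080, plus strand: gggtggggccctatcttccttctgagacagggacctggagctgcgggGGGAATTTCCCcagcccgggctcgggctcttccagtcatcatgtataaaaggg
The capital letters read the same in all 3, and begin 71, 97 and 73 bases before the start in Cxcl1, Cxcl2 and Cxcl3. The consensus was also found in the windows of Reg3g, Nox1, Steap2, Steap4, Tnip3 and Tnfaip3, which were called higher, of Nr4a1, which was called lower, and of Sdhb, which was not called. The kappaB consensus was found in 8.64% of 405 promoter windows of genes called higher, in 3.87% of 826 windows of genes called lower and in 5.2% of 17878 windows of all tested genes. A match is a run of letters, and binding was not measured. Cxcl5 had no entry in the promoter table.

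Genes known as targets and feedback inhibitors of NF-kappaB were called higher in 5 of 16 and lower in 1 (Traf1), beside 2.47% and 4.43% of all genes. Icam1, an adhesion molecule for leukocytes, rose from 18.6 ± 8.0 (SD, n = 5) to 126 ± 54 (SD, n = 3) (2.69 ± 0.45 (SE), adjusted p = 0.00328). Tnip3, an inhibitor of the pathway, rose from 2026 ± 289 (SD, n = 5) to 5994 ± 1589 (SD, n = 3) (1.54 ± 0.26 (SE), adjusted p = 0.00331). Rel, Nfkbia and Tnfaip3 rose by 1.44, 1.38 and 1.23 on the log2 scale, with adjusted p of 0.0358, 0.0289 and 0.025; these 3 lost their call when WT mice 61 and 75 were the only controls, and none of the 5 kept it with the receptor covariate. Without WT mice 61 and 75 the list counted 7 higher and 4 lower, beside 5302 and 4586 of 19002 over all genes.

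Among 14 other chemokines, 4 were called higher and none lower, beside 2.47% and 4.43% of all genes. Cxcl9, a ligand of the T cell receptor CXCR3 and a gene of the interferon-gamma response, was at 601, 157 and 468 in KO and 46.9, 63.2, 42, 83.9 and 39.4 in WT (2.72 ± 0.41 (SE), adjusted p = 0.00169), and was called in every setting. Cxcl11, another CXCR3 ligand, rose by 1.83 ± 0.37 (SE) (adjusted p = 0.00943). The monocyte chemokines Ccl7 and Ccl2 were low throughout, at 64.4, 90.8 and 37.5 and 27.3, 52.5 and 19.7 in KO against 1.6, 4.5, 2.5, 0 and 5.6 and 0.8, 4.5, 0, 1.6 and 8.0 in WT (adjusted p = 0.00434 and 0.0084).

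The Clca family, proteins named as calcium-activated chloride channel regulators, split. Of 8 tested, 5 were called higher and 1 lower, beside 2.47% and 4.43% of all genes. Clca4b was the gene with the smallest adjusted p of all: it was read at 40109, 73441 and 103360 in KO and at 372, 256, 312, 275 and 276 in WT. The lowest KO value was far above the highest WT value, the WT mice differed little among themselves, and the log2 difference was 7.83 ± 0.41 (SE) (adjusted p = 1.47e-07). Clca3b rose from 1435 ± 293 (SD, n = 5) to 18073 ± 5748 (SD, n = 3) (3.63 ± 0.37 (SE), adjusted p = 8.61e-05). Both were called in every setting. Clca3a1, Clca3a2 and Clca4c-ps, listed as Clca4c, rose by 2.74, 2.59 and 3.35 (adjusted p = 0.00155, 0.00161 and 0.00447); Clca3a1 and Clca3a2 are near-identical copies whose reads the counting could split. Clca1, the member secreted by goblet cells, fell instead, from 131240 ± 45668 (SD, n = 5) to 24106 ± 16057 (SD, n = 3) (-2.55 ± 0.53 (SE), adjusted p = 0.0113). It was called in 21 of the 25 settings, with irradiated WT alone, WT mice 61 and 75 alone and the receptor covariate among those where it was not.

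Genes of the receptors were called at a share near that over all genes. Of 18 genes of the IL-22, IL-10 and IL-17 receptors and their signalling, 1 was called higher (Socs3) and 1 lower (Il17re). Each is 5.56% of the list, beside 2.47% and 4.43% of all genes. Without WT mice 61 and 75 it was 4 and 5, beside 5302 and 4586 of 19002 over all genes. Il22ra1, the IL-22 receptor chain of epithelial cells, was at 1239, 1313 and 2136 in KO and 2518, 1660.1, 2808, 2685 and 1753 in WT (-0.56 ± 0.31 (SE), adjusted p = 0.187). Il10rb, the chain that the receptors of IL-10 and IL-22 share, was at 712, 654 and 1085 against 963, 743, 1019, 1099 and 697 (-0.16 ± 0.23 (SE), adjusted p = 0.609). Socs3, the feedback inhibitor that STAT3 induces, was at 116, 216 and 771 in KO and 61.7, 25.3, 34.4, 68.4 and 28.9 in WT, with no overlap and with mouse 57 far above the other KO mice. Its log2 difference was 2.71 ± 0.61 (SE) (adjusted p = 0.0185), but it was not called without KO mouse 50 (adjusted p = 0.064), nor with irradiated WT, non-irradiated WT or WT mice 61 and 75 as the only controls.

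STAT factors bind paired half-sites, TTCNNNGAA in letters, where N is any base; the letters read the same on both strands. This motif was found in the promoter windows of Reg3b, Socs3, Steap4, Tgtp1, Tgtp2, Icam1, Ifit2, Casp12 and Steap2, which rose. It was also found in those of Ang4, Cyp4b1, Efna3 and Prss23, which fell, and of Fas, which was not called. Prss23, Efna3, Ifit2 and Steap2 had 7, 2, 2 and 3 windows, and each had a single match of the motif. For 4 genes of the STAT and interferon responses 100 bases around it are printed 5′ to 3′ on the gene's strand, again from RefSeq on GRCm38.p6, with motif letters in capitals. In Tgtp1, a GTPase described below, the core of the interferon response element, GAAANNGAA, follows it and is also in capitals.
Reg3b, chr6:78370715-78370814, plus strand: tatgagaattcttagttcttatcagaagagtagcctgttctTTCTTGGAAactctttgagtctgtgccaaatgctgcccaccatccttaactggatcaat
Socs3, chr11:117969457-117969556, minus strand: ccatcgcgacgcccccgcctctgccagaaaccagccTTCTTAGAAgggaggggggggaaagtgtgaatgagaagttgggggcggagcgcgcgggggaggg
Steap4, chr5:7960312-7960411, plus strand: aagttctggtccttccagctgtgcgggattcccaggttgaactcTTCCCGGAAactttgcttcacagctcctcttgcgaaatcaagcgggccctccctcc
Tgtp1, chr11:48992267-48992366, minus strand: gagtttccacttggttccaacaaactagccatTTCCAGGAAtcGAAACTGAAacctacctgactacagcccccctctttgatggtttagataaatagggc
The STAT letters begin 129, 154, 116 and 88 bases before the start. TTCNNNGAA was found in 9.88% of the windows of genes called higher, 6.42% of those called lower and 7.56% of those of all tested genes. GAAANNGAA, searched on both strands, was found in 10.4%, 4.72% and 7.56%. The windows of S100a8, S100a9, Clca4b, Lrg1 and Lcn2 held none of the 3 motifs, which says only that these letters are not in them.

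Interferon-gamma inducible GTPases rose as a family. Of 17 tested, 13 were called higher and none lower, beside 2.47% and 4.43% of all genes. The median log2 difference was 1.97. Gbp4 was read at 3096, 2382 and 4571 in KO late and at 97.9, 110, 80.3, 509.9 and 65.9 in WT. WT mouse 73 was the highest control in this gene, yet no KO value of Gbp4 came near it, and the log2 difference was 4.69 ± 0.61 (SE) (adjusted p = 0.000507). Tgtp1 and Tgtp2, near-identical neighbours, were at 449.6, 218 and 694 and 706, 325 and 1131 in KO against 19.8, 23.8, 12.7, 148 and 5.6 and 42.8, 58.7, 24.2, 213 and 17.7 in WT, differences of 4.13 ± 0.73 (SE) and 3.72 ± 0.63 (SE) (adjusted p = 0.00447 and 0.0034). Iigp1, which attacks the vacuoles of intracellular parasites, rose from 519 ± 422 (SD, n = 5) to 4667 ± 1932 (SD, n = 3) (3.44 ± 0.52 (SE), adjusted p = 0.00169). Gbp2 rose from 2220.3 ± 1582 (SD, n = 5) to 10089 ± 4083 (SD, n = 3) (2.31 ± 0.51 (SE), adjusted p = 0.0157). Gbp3, Gbp7, Gbp11 and Irgm2 were not called, at log2 differences of 1.10, 1.11, 0.82 and 0.89. With only WT mice 61 and 75 as controls 12 of the 13 stayed called, with the receptor covariate 10, with each library left out in turn 8, and in every setting 3 (Gbp4, Igtp and Iigp1).

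Genes induced mainly by type I and III interferons were counted apart. Of 25 tested, 1 was called higher (4%, beside 2.47% of all genes) and none lower (beside 4.43%) in all libraries. The median log2 difference was -0.31. The sign of that median depended on the setting: it was 0.35 with the receptor covariate (3 higher) and -0.54 without WT mice 61 and 75 (1 higher and 6 lower). The 1 called was Ifit2, at 8183, 5864 and 9587 in KO and 1025, 1179.9, 1944, 1293 and 946 in WT (2.64 ± 0.32 (SE), adjusted p = 0.000334), in every setting. Its relatives Ifit1 and Ifit3 stood at log2 differences of -0.60 and -0.50 (adjusted p = 0.162 and 0.179), and Irf7, the factor that amplifies the type I response, at -1.22 ± 0.44 (SE) (adjusted p = 0.0746). Antigen presentation was less uniform. Of 15 genes of MHC class I presentation 1 was called, Nlrc5, the transactivator of class I, at 1648, 1703 and 2623 against 805, 541, 819, 1564 and 403 (1.39 ± 0.37 (SE), adjusted p = 0.0396), a call lost without KO mouse 50, among other settings. That 1 call is 6.67% of the class I list, beside 2.47% of all genes. The class I list counted 7 higher with the receptor covariate, beside 219 of 19145 genes. It counted 3 without WT mouse 73, beside 298 of 19108. None of 9 class II genes was called by limma, 3 higher and 1 lower had an unadjusted p below 0.05, edgeR called none and DESeq2 called 1 higher and 1 lower. The median difference of that list was 1.37, and the spread was wide: H2-Aa was at 6503, 3747 and 9269 in KO and 3912, 3611, 841, 8903 and 180 in WT (1.75 ± 0.90 (SE), adjusted p = 0.163).

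**Figure D4:**
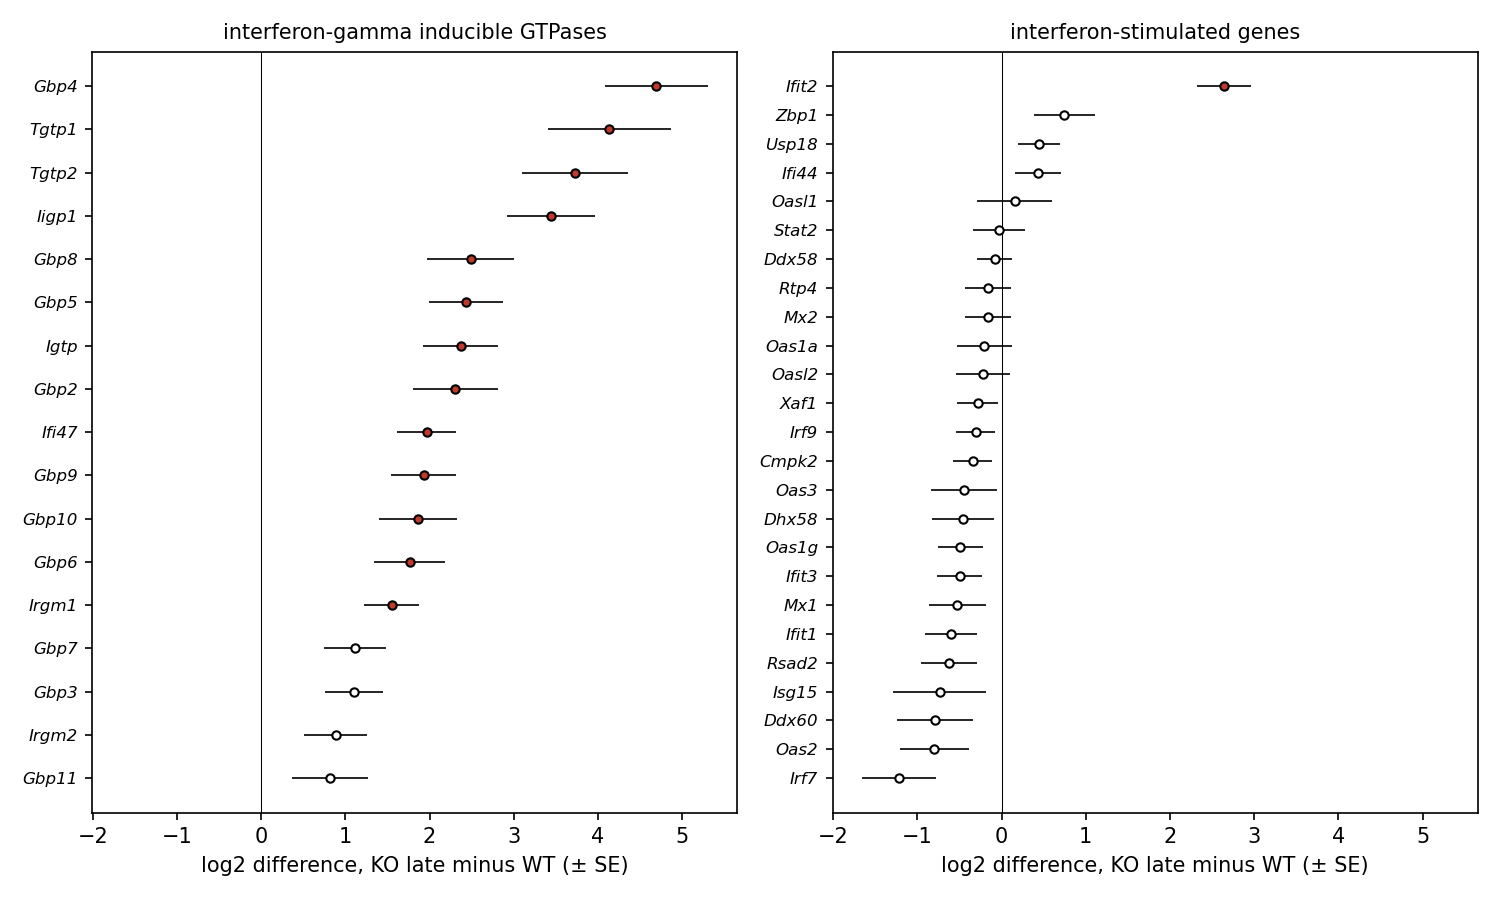
Log2 difference, KO late minus WT, with its SE (x axis) for the tested interferon-gamma inducible GTPases (left) and interferon-stimulated genes (right); filled points were called. Of the GTPases 13 of 17 were called and all 17 lie above 0, while of the interferon-stimulated genes only Ifit2 was called.

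Genes of wound-associated and fetal-like epithelium, a state that injured gut lining takes on while it closes, were called higher in 9 of 26. None was lower (median log2 difference 1.04), and over all genes 2.47% were higher and 4.43% lower. Ly6a, the surface protein Sca-1 by which this state is recognised, was at 10310, 11954 and 14014 in KO and 2201, 1636, 3124, 5522 and 1867 in WT (2.21 ± 0.35 (SE), adjusted p = 0.00222). Anxa1, a pro-resolving annexin, went from 2036 ± 365 (SD, n = 5) to 10053 ± 2176 (SD, n = 3) (2.30 ± 0.27 (SE), adjusted p = 0.00028). Plaur, the urokinase receptor, went from 239.9 ± 62.1 (SD, n = 5) to 1587 ± 509 (SD, n = 3) (2.71 ± 0.44 (SE), adjusted p = 0.00254). These 3 were called in every setting, as was Ly6c1 among the Ly6 surface proteins, of which 4 of 17 were called higher. Ly6c1 was at 431, 657 and 739.7 in KO and 28, 12.6, 19.1, 295 and 24.9 in WT, mouse 73 being far above the other WT mice. Ly6d, low in all WT libraries (2.5, 4.5, 1.3, 6.2 and 4.0), reached 42.1, 99.9 and 265 in KO (4.59 ± 0.84 (SE), adjusted p = 0.00536). Sprr2h, a small proline-rich protein of squamous barriers, was at 164, 436 and 344 against 3.3, 5.9, 1.3, 0 and 14.5 (6.18 ± 0.80 (SE), adjusted p = 0.000485). Areg, Cd55, Il1rn and Krt23 rose by 1.08, 1.00, 1.28 and 1.79 on the log2 scale, and each lost its call in at least 1 other setting. The wound list counted 3 higher with only WT mice 61 and 75 as controls, 5 without KO mouse 50 and 15 without WT mice 61 and 75.

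Proteases, their inhibitors and the hypoxia response followed in part. Of 30 proteases and inhibitors 5 were called higher and 5 lower, beside 2.47% and 4.43% of all genes. Without WT mice 61 and 75 it was 9 and 9, beside 5302 and 4586 of 19002 over all genes. Plat, the tissue plasminogen activator, was at 368, 1750.4 and 1057 in KO and 58.4, 49.8, 40.8, 29.5 and 68.3 in WT (4.18 ± 0.48 (SE), adjusted p = 0.000229). Mmp7, matrilysin, which in mice activates Paneth cell defensins, went from 12.4 ± 5.58 (SD, n = 5) to 99.7 ± 42 (SD, n = 3) (2.95 ± 0.44 (SE), adjusted p = 0.00148). Of 26 glycolysis and hypoxia genes 6 were called higher and none lower, beside the same shares over all genes. Pfkfb3, which pushes glycolysis, was at 1634, 2079 and 2986 against 261, 256, 271, 249 and 367 (2.96 ± 0.44 (SE), adjusted p = 0.00138), and Egln3, an oxygen sensor that HIF induces, at 2768, 3153 and 5551 against 1194, 694, 809, 1265 and 1294 (1.84 ± 0.33 (SE), adjusted p = 0.0045). Hif1a itself rose by 0.99 ± 0.27 (SE) (adjusted p = 0.0409), a call lost with WT mice 61 and 75 as the only controls. Without KO mouse 57 and WT mice 61 and 75, 3 of this list were higher and 8 lower, and its median moved from 0.33 to -0.55.

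**Figure D5:**
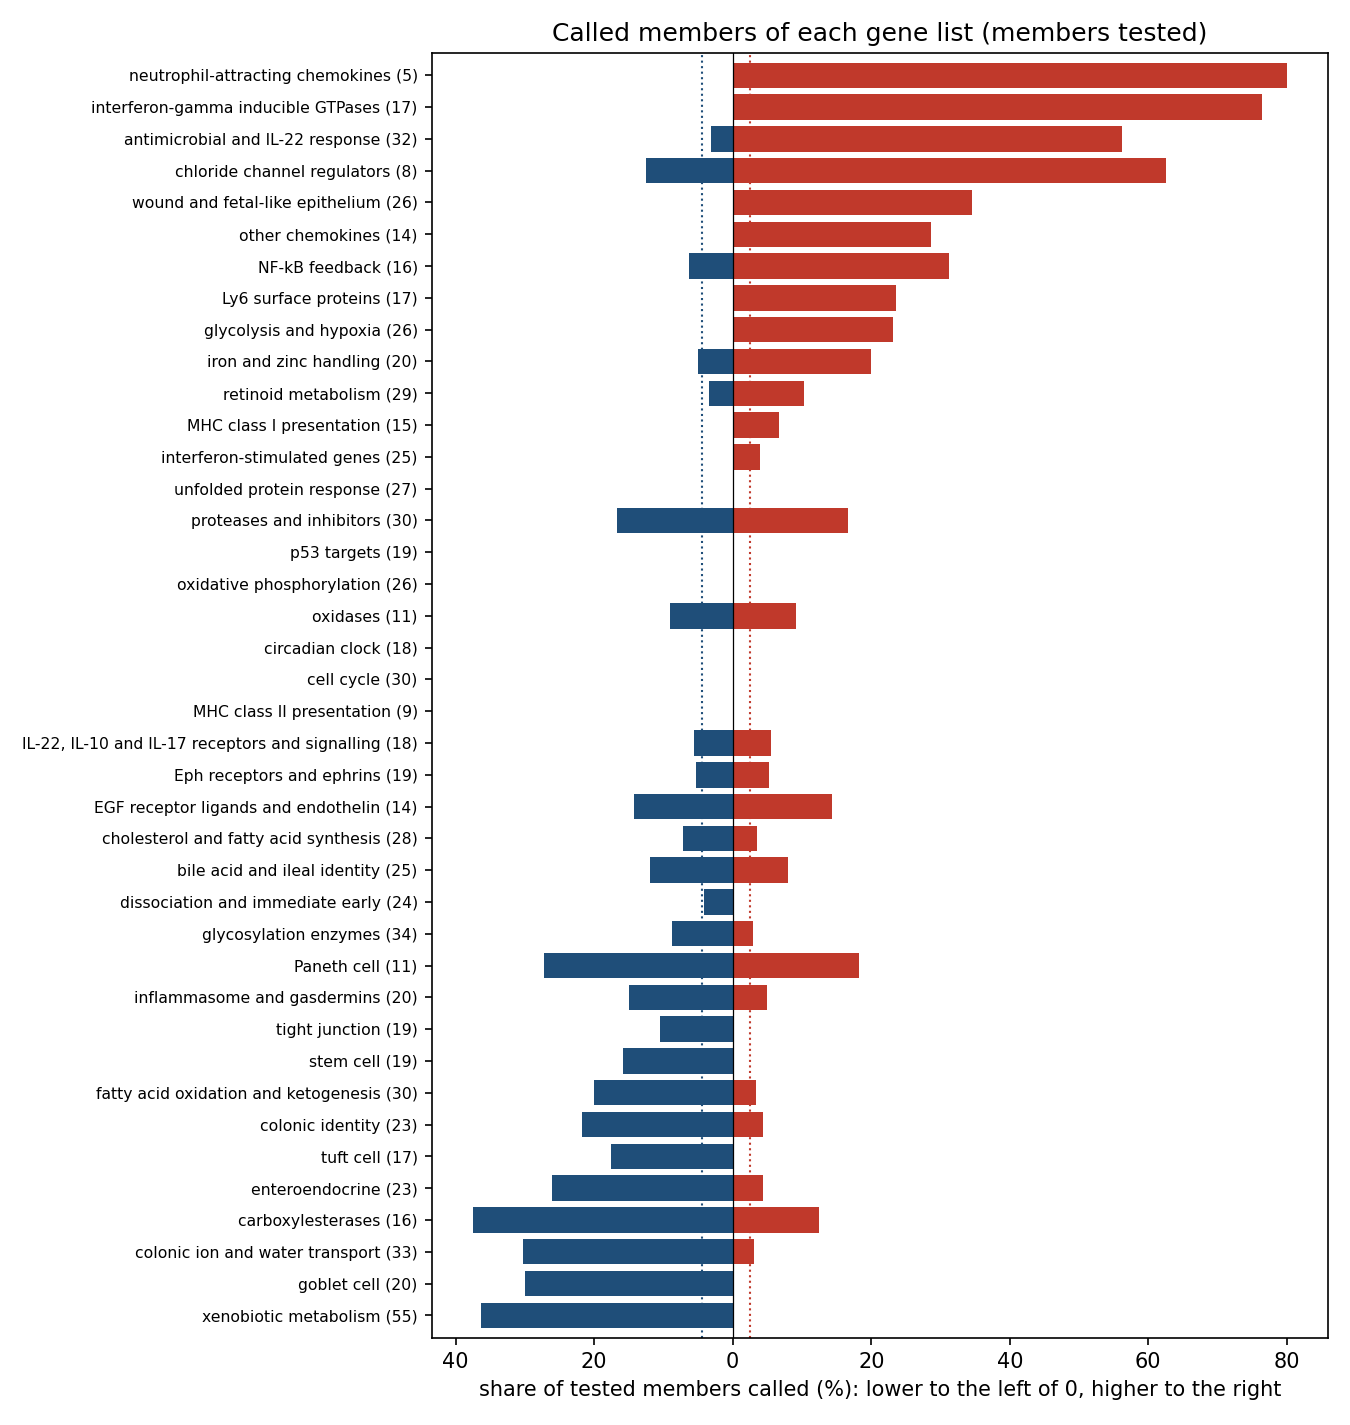
Share of the tested members of each gene list (y axis, number tested in parentheses) that were called higher (red, to the right) or lower (blue, to the left), in percent; dotted lines mark the shares over all genes tested, 2.47% and 4.43%. Chemokines for neutrophils, interferon-gamma inducible GTPases, chloride channel regulators and the antimicrobial list reach farthest to the right, xenobiotic metabolism and carboxylesterases farthest to the left.

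Among the genes that fell most were several that encode secreted proteins. Mptx1, a mucosal pentraxin, was at 83, 287 and 198 in KO late and at 21738, 21974, 53568, 25996 and 30330 in WT. Mptx1 was picked among genes without overlap, and every KO value was far below every WT value. The log2 difference was -7.42 ± 0.88 (SE) (adjusted p = 0.000296). Ang4, an angiogenin with bactericidal activity, was at 104, 28.3 and 47.3 against 4765, 2686, 8222, 4218 and 4684 (-6.44 ± 0.71 (SE), adjusted p = 0.000182). Sycn, syncollin, a protein of exocrine granules, was at 27.3, 17.5 and 33.5 against 1900.4, 369, 934, 1132 and 270 (-4.79 ± 0.67 (SE), adjusted p = 0.000895). All 3 were called in every setting. Clps, the cofactor of pancreatic lipase, was at 5.0, 6.7 and 2.0 against 110.3, 33.5, 155, 121 and 65.9 (-4.07 ± 0.57 (SE), adjusted p = 0.000961). Prss23, a serine protease, was tight in both groups, at 73.1, 47.5 and 47.3 against 1214, 1229, 1213, 1558 and 1407 (-4.56 ± 0.46 (SE), adjusted p = 8.46e-05). Prss23 is also 1 of the 117 genes called in every setting. Klk1, tissue kallikrein, fell from 3274 ± 887 (SD, n = 5) to 534 ± 210.2 (SD, n = 3) (-2.66 ± 0.40 (SE), adjusted p = 0.00159).

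Goblet cells make the mucus layer. Of 20 of their listed genes 6 were called lower and none higher (median log2 difference -0.99). Over all genes 4.43% were lower and 2.47% higher. The 6 were Ang4, Klk1, Clca1, Guca2a, Capn9 and Creb3l1. Guca2a, guanylin, was at 959, 559 and 2552 in KO and 7376, 4229, 8931, 8272 and 4976 in WT (-2.55 ± 0.47 (SE), adjusted p = 0.0059). Muc2, the gel-forming mucin, was at 45672, 17926 and 47154 against 106420, 31913, 88212, 101010 and 52458 (-1.03 ± 0.46 (SE), adjusted p = 0.119) and was not called. In bulk libraries fewer cells of a type and less RNA per cell cannot be told apart, here or for the cell types that follow. Only Ang4 of the 6 was called in every setting; with WT mice 61 and 75 as the only controls 2 were called, and without those 2 mice 13. The median of the list was 0.25 with the receptor covariate, so its direction there was the opposite. The Paneth cell list, whose cells normally sit in the small intestine, moved both ways, with Pla2g2a and Mmp7 higher and Mptx1, Ang4 and Itln1 lower out of 11. Pla2g2a, a phospholipase gene, was at 112, 149.9 and 252 against 35.4, 26, 22.9, 24.9 and 20.1 (2.62 ± 0.29 (SE), adjusted p = 0.000153). Enzyme activity was not measured.

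Enteroendocrine genes fell in 6 of 23 and rose in 1, beside 4.43% and 2.47% of all genes. Chga, chromogranin A, the shared granule protein of these cells, was at 97.9, 47.5 and 45.4 in KO and 427, 574, 619, 948 and 743 in WT, with no overlap (-3.40 ± 0.34 (SE), adjusted p = 8.07e-05). Pyy, the satiety hormone of colonic L cells, was at 2.5, 3.3 and 10.8 against 40.3, 37.9, 68.8, 46.6 and 82 (-3.25 ± 0.41 (SE), adjusted p = 0.000438). Insl5, another L cell hormone, was at 2.5, 5.8 and 3.9 against 23.9, 32, 53.5, 18.7 and 45.8 (-2.77 ± 0.44 (SE), adjusted p = 0.00225). Nts, Sct and Chgb fell, with log2 differences of -2.30, -2.27 and -2.02 (adjusted p = 0.00259, 0.00244 and 0.0173). The gene that rose was Tac1, the precursor of substance P, at 227, 688 and 636 against 33.7, 38.7, 63.7, 46.6 and 63.5 (3.25 ± 0.43 (SE), adjusted p = 0.000553). In this list Chga, Nts, Pyy and Tac1 were called in every setting, and with WT mice 61 and 75 as the only controls all 6 lower genes stayed called. The list counted 5 higher and 8 lower without WT mouse 75, 7 and 7 without WT mice 61 and 75, and 7 and 6 without KO mouse 57 as well. With irradiated WT alone it counted 1 and 3. Nerve and glia markers, whose cells can also make Tac1, summed to 20.47 to 42.9 RPM in KO and 8.84 to 38.2 in WT, with none called and none at 0 in all 8 libraries; their part in the rise of Tac1 was not tested.

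Tuft cell genes were called lower in 3 of 17 and stem cell genes in 3 of 19, beside 4.43% of all genes. None of either list was called higher, beside 2.47%. Trpm5, the cation channel of tuft cell taste signalling, was at 61.9, 63.3 and 52.3 against 221, 163, 199, 233 and 187 (-1.74 ± 0.22 (SE), adjusted p = 0.000485), in every setting. Sox9, Axin2 and Ascl2, genes of the crypt base, fell, with log2 differences of -1.54, -1.14 and -2.09 (adjusted p = 0.00986, 0.0214 and 0.0441); none of these 3 calls survived the loss of KO mouse 50. Without WT mouse 75 the stem cell list counted 2 higher and 6 lower and the tuft cell list 1 higher and 4 lower. No gene of the cell cycle (30 tested), p53 targets (19), oxidative phosphorylation (26), the unfolded protein response (27) or the circadian clock (18) was called by limma with all libraries. At an unadjusted p below 0.05 these lists held 1 higher and 5 lower, 2 and 1, 0 and 1, 3 and 1, and 1 and 4. edgeR called 1 gene in these lists, a lower one of the unfolded protein response, and DESeq2 called 1 higher and 2 lower, 1 and 0, 0 and 0, 1 and 1, and 0 and 1. With 1 library left out limma called up to 1 higher and 6 lower, 0 and 2, 0 and 3, 0 and 1, and 1 and 4 in the 5 lists. Without WT mice 61 and 75 it called 1 higher and 8 lower, 1 and 4, 0 and 3, 0 and 4, and 1 and 4, and without KO mouse 57 as well 0 and 10, 0 and 8, 0 and 14, 0 and 6, and 1 and 5.

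Transport of ions, water and nutrients by surface colonocytes was lower in 10 of 33 genes and higher in 1 (median log2 difference -0.69). Over all genes 4.43% were lower and 2.47% higher. Slc37a2, a sugar-phosphate exchanger, was at 222, 169 and 114 in KO and 4498, 2014, 2652, 5845 and 1095 in WT (-4.07 ± 0.56 (SE), adjusted p = 0.000813). Slc20a1, a phosphate carrier, was at 820, 1253 and 1063 against 17067, 7008, 8532, 8861 and 9650.4 (-3.24 ± 0.41 (SE), adjusted p = 0.000438), in every setting. Slc26a3, the chloride-bicarbonate exchanger whose loss causes chloride diarrhoea, was at 4555, 9080.1 and 5739 against 23067, 15954, 23881, 23575 and 13653 (-1.66 ± 0.36 (SE), adjusted p = 0.0142). Aqp8, a water channel, was at 5667, 8613 and 16236 against 11353, 9391, 17711, 15384 and 7469 and was not called (-0.34 ± 0.45 (SE), adjusted p = 0.586). Slc5a8, a butyrate carrier, rose from 5326 ± 1014 (SD, n = 5) to 11530 ± 2861 (SD, n = 3) (1.10 ± 0.22 (SE), adjusted p = 0.0102). With WT mice 61 and 75 as the only controls 2 of the list were lower, with irradiated WT alone 2 and with the receptor covariate 1. The lower count was 6 without KO mouse 49 or 50, 16 without WT mouse 75 and 20 without WT mice 61 and 75.

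Enzymes that clear foreign compounds were called lower in 20 of 55 and higher in none (median log2 difference -0.77). Over all genes 4.43% were lower and 2.47% higher. Sult1a1, a phenol sulfotransferase, was at 193, 35 and 32.5 in KO and 1483, 1649.7, 2006, 1803 and 1268 in WT, mouse 49 being the highest KO mouse (-4.72 ± 0.76 (SE), adjusted p = 0.00225). Cyp4b1 was at 42.1, 61.6 and 24.7 against 334, 293, 166, 544 and 454 (-3.02 ± 0.46 (SE), adjusted p = 0.00169), the 1 gene of the list called in every setting. Cyp2c55, a cytochrome P450, fell from 34392 ± 7901 (SD, n = 5) to 3893 ± 2388 (SD, n = 3) (-3.32 ± 0.70 (SE), adjusted p = 0.0128). Abcb1a, the drug efflux pump, was at 5897, 5220.4 and 6196 against 19976, 18973, 21340, 22927 and 19457 (-1.83 ± 0.35 (SE), adjusted p = 0.00748). The 5 called Ugt1a genes share exons and are not independent. The count of lower genes was 3 with irradiated WT alone, 14 with non-irradiated WT alone, 4 with WT mice 61 and 75 alone, 3 with the receptor covariate and 30 (with 8 higher) without WT mice 61 and 75.

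Carboxylesterases, which hydrolyse esters of drugs and lipids, split: 6 of 16 were lower and 2 higher, beside 4.43% and 2.47% of all genes. The lower count was 3 without KO mouse 50, 1 with irradiated WT alone, 2 with WT mice 61 and 75 alone and 1 with the receptor covariate. The higher count was 5 without WT mouse 61 or WT mouse 75, 4 without KO mouse 57 and 1 with irradiated WT alone. Ces2f was low in WT, at 16.5, 21.6, 5.1, 32.6 and 24.9, and reached 509, 1259.9 and 677 in KO (5.37 ± 0.54 (SE), adjusted p = 7.84e-05), in every setting, and its neighbour Ces2g rose by 2.24 ± 0.38 (SE) (adjusted p = 0.00367). Ces2b, Ces2a and Ces1d fell, with log2 differences of -1.82, -2.06 and -2.56 (adjusted p = 0.000961, 0.00189 and 0.0051). Of 30 genes of fatty acid oxidation and ketogenesis 6 were lower and 1 higher, beside the same shares over all genes. Ppara and Ppargc1a, regulators of fatty acid oxidation, fell, with log2 differences of -1.57 and -1.74 (adjusted p = 0.00659 and 0.0105). None of the 6 lower genes was called with WT mice 61 and 75 as the only controls. The lower count was 3 without KO mouse 49 or 50 or WT mouse 72 or 73, 4 without WT mouse 59, 9 without WT mouse 61, 11 without WT mouse 75 and 14 without KO mouse 57. Slc10a2, the sodium-dependent bile acid carrier, was at 147, 128 and 182 against 1076, 1013, 789, 1225 and 1529 (-2.86 ± 0.36 (SE), adjusted p = 0.000443), in every setting.

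Of 29 retinoid genes 3 were higher and 1 lower, beside 2.47% and 4.43% of all genes. The retinoid counts were 9 and 4 without WT mouse 61, 9 and 6 without WT mouse 75 and 12 and 8 without both. Dhrs9, a retinol dehydrogenase, rose from 645 ± 105 (SD, n = 5) to 2853 ± 776 (SD, n = 3) (2.13 ± 0.33 (SE), adjusted p = 0.00206), in every setting. Of 20 inflammasome and gasdermin genes 1 was higher (Casp12) and 3 lower, all gasdermin C genes, which encode pore-forming proteins. These are 5% and 15% of the list, beside 2.47% and 4.43% of all genes. Gsdmc2, Gsdmc3 and Gsdmc4, near-identical copies, had log2 differences of -1.94, -2.18 and -1.80 (adjusted p = 0.00433, 0.00447 and 0.00158). All 3 stayed called with any 1 library left out, and none did with WT mice 61 and 75 as the only controls or with the receptor covariate. The list counted 4 higher and 5 lower without WT mouse 75.

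Other named genes stood outside these pathways. Efna3, an ephrin ligand, was at 70.6, 19.2 and 29.6 in KO and 1342, 353, 516, 799 and 593 in WT (-4.20 ± 0.68 (SE), adjusted p = 0.00241). Hao2, a peroxisomal hydroxyacid oxidase, was at 456, 106 and 88.8 against 3191, 2597, 3672, 2225 and 1372 (-3.92 ± 0.62 (SE), adjusted p = 0.00213). Tgm3, a transglutaminase of differentiated epithelium, was at 2425, 898 and 669 against 18384, 10822, 14602, 24853 and 9012 (-3.68 ± 0.51 (SE), adjusted p = 0.000901). All 3 were picked among genes without overlap between the groups. None of the 3 calls survived the receptor covariate. Slc30a10, a manganese exporter, fell from 884 ± 179.6 (SD, n = 5) to 122 ± 79.1 (SD, n = 3) (-3.03 ± 0.42 (SE), adjusted p = 0.000961), and Tfrc, the transferrin receptor, rose by 0.88 ± 0.22 (SE) (adjusted p = 0.0316).

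Markers of other cells were set beside these results. The summed level of 11 epithelial markers was 10643 to 20633 RPM in KO late and 10506 to 12814 in WT, and none was called. The sum of 17 neutrophil markers was 378 to 1037 RPM in KO and 79.9 to 164 in WT. S100a8, S100a9 and Ltf were the 3 called of 14 tested. Without them the sums were 120 to 189 and 78.0 to 162, and most of that was Ly6g. Ly6g was at 987, 1537 and 1619 normalised reads in KO and 1309, 625, 958, 2302 and 1095 in WT. All 14 tested markers had a log2 difference above 0, with a median of 1.00. Leukocyte markers summed to 46.2 to 125 against 36.2 to 82.4 RPM, monocyte and macrophage markers to 84.9 to 138 against 32.9 to 82.8, and T and B cell markers to 33.8 to 74.2 against 16.8 to 49.5. In each of these 3 lists 1 gene was called higher: Cd53, Mrc1 and Jchain, at log2 differences of 1.45 ± 0.40 (SE), 1.63 ± 0.35 (SE) and 2.50 ± 0.67 (SE). All 3 calls were lost without KO mouse 50, and Cd53 and Jchain lost theirs in other fits too. At an unadjusted limma p below 0.05 the lists held 3 of 10, 7 of 13 and 5 of 14 higher and none lower. Over all genes 7197 of 19145 had such a p, in either direction. Log2 differences were above 0 for 10, 12 and 14 markers, beside 9375 of 19145 genes. With 1 library left out limma called up to 3, 5 and 6 higher. Stroma and endothelium summed to 73.2 to 153 against 53 to 139 RPM, with Acta2 higher and Pdgfrb lower; nerve and glia are given beside Tac1. No marker was at 0 in all 8 libraries. The part of other cells in the rise of calprotectin and chemokines was not tested.

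To see whether the colon differed from the ileum of the same mice, the KO late minus WT difference in colon was tested against that in ileum over all 24 libraries. Of 19588 genes 204 were called (1.04%), 102 larger in colon and 102 smaller; with the mouse as replicate block, since each mouse gave both tissues, 784 were called. Of the 1321 colon calls 194 were also called here, all in the same direction. The colon difference is itself part of the value tested here, so the shared direction is not a separate result. Clca4b, at 33684 ± 2191 (SD, n = 3) in KO late ileum and 32349 ± 7358 (SD, n = 5) in WT ileum, had a difference in colon that exceeded that in ileum by 7.73 ± 0.52 (SE) (adjusted p = 2.14e-09). Reg3g likewise stood at 66624 ± 30406 (SD, n = 3) in KO late ileum and 59339 ± 31090 (SD, n = 5) in WT ileum, an excess of 6.12 ± 0.87 (SE) in colon (adjusted p = 0.000393). S100a8 was low in both ileum groups (3.7 ± 1.65 (SD, n = 3) and 6.8 ± 7.58 (SD, n = 5); excess 9.53 ± 1.59 (SE), adjusted p = 0.00237). Cxcl3 and S100a9 had excesses of 6.42 ± 1.40 (SE) and 6.96 ± 1.63 (SE) (adjusted p = 0.0227 and 0.0368), and each lost its call in several of the fits with 1 mouse left out.

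On the falling side, Ang4 stood at 1258 ± 1028 (SD, n = 3) in KO late ileum and 1046 ± 609.7 (SD, n = 5) in WT ileum, so that its fall in colon differed from the ileal difference by -6.43 ± 0.99 (SE) (adjusted p = 0.000864). Prss23, at 1293 ± 375 (SD, n = 3) and 1303 ± 173 (SD, n = 5) in ileum, differed by -4.52 ± 0.58 (SE) (adjusted p = 0.00012). For Mptx1, Sult1a1 and Pck1, a gluconeogenic enzyme, the differences between tissues were -6.10 ± 1.20 (SE), -4.65 ± 0.95 (SE) and -4.49 ± 0.93 (SE) (adjusted p = 0.0119, 0.0143 and 0.0155). These 3 lost their call with 1 mouse left out: Mptx1 without KO mouse 49 or 50 (largest adjusted p = 0.088), Sult1a1 without 50 or 57 (0.133) and Pck1 without 49, 50, 57 or WT mouse 72 (0.158). Mptx1 and Sult1a1 had low values in ileum, at means of 54.5 and 15.5 in WT, and Pck1 differed the other way there, at 1473 ± 257 (SD, n = 3) in KO late and 599.6 ± 518 (SD, n = 5) in WT. Of the 13 interferon-gamma inducible GTPases called in colon, none was called in the difference between tissues, which does not show that the tissues acted alike; with the mouse as replicate block Gbp4 and Gbp5 were (adjusted p = 0.00204 and 0.0304). Gbp2 differed by 0.21 ± 0.84 (SE) (adjusted p = 0.895), Iigp1 by 1.08 ± 0.94 (SE) (adjusted p = 0.497) and Gbp4 by 3.18 ± 0.85 (SE) (adjusted p = 0.0709).

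Few genes were called between the 2 KO times. Between KO late and KO early colon, 2 of 19145 genes were called (0.0104%). Pyy was at 2.5, 3.3 and 10.8 in KO late and at 45.7 to 81.7 in the 4 KO early mice, a log2 difference of -3.28 ± 0.43 (SE) (adjusted p = 0.0315). The WT mice ran from 37.9 to 82. Slfn5os, an antisense transcript, was at 469.5, 275 and 411 in KO late and 99.7 to 143 in KO early (1.70 ± 0.24 (SE), adjusted p = 0.0412). Other genes had wide values in KO early. S100a8 ran from 16 to 3945 there, Cxcl5 from 46.4 to 3078 and Mptx1 from 179 to 6781, and their differences between the 2 times had adjusted p of 0.291, 0.392 and 0.2. Clca4b ran from 18655 to 83854 in KO early (adjusted p = 0.408 for the 2 times). KO late and KO early were compared with the same WT mice.

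No gene was called between irradiated and non-irradiated WT colon (0% of 19145), 66 had an unadjusted p below 0.05, and edgeR and DESeq2 called none. The 66 depended on the libraries: without WT mouse 72, 73 or 75 it was 91, 60 or 1907, again with none called. With irradiated WT alone as the control 197 genes were called against KO late, 196 of them among the 1321, and with non-irradiated WT alone 476, 471 of them among the 1321; 187 of the 1321 were called against each. The 2 irradiated mice, 59 and 61, lay on different sides of the first principal component, which limits what that comparison can show.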

How the data were processed

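Epithelium was sorted from colon and ileum of 12 mice, and 24 libraries were made. Per the labels' protocols, 100 ng of total RNA went into a stranded kit with ribosomal depletion (the molecule label reads polyA RNA, which disagrees), and 50-base single-end reads came from 3 lanes; no source used here gives the lane of each library. The series' design text speaks of macrophages, while the sample labels describe epithelium. Per the submitters' processing notes, bcl2fastq, HISAT 0.1.6 and HOMER were used, with build mm9. The authors deposited a coverage signal, 1 value per gene and library, scaled by a size factor per library and rounded to 1 decimal; dividing by the value of 1 read gave whole numbers within 0.05 for nearly all values of the libraries used in count tests (95.7 to 100% in each). Every column matched 1 library.

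Groups were taken from the labels. log2(deposited signal + 1) was fitted with limma 3.58.1 (R 4.3.3, trend) over the 12 colon libraries as 3 groups, and over all 24 libraries for the difference between tissues; p-values were adjusted by Benjamini-Hochberg. In the colon fit they measure the spread between these mice. The unblocked tissue fit treats the colon and ileum libraries of a mouse as independent, so its p-values ignore the pairing. In the tissue comparison mouse numbers pair the libraries, because the labels give colon and ileum from the same mouse; a fit with the mouse as replicate block was run beside the unblocked one. edgeR 4.0.16 and DESeq2 1.42.0 on recovered reads, other pseudocounts, filters, scalings, controls, a covariate and left-out libraries were alternatives; the ileum library of KO early mouse 118 was left out of count tests. Scripts were tested on simulated data.

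Genes named were the 10 higher and 10 lower with the largest change among called genes without overlap, with at least 5 RPM and a gene name; up to 3 called genes per list by p (2 in a list without calls); a preset of 17 genes of the IL-22 and IL-10 axis; and the 5 largest in each direction between tissues. Other called list members could be named. The uncalled genes Muc2, Aqp8, Ifit1, Ifit3, Irf7, Gbp3, Gbp7, Gbp11 and Irgm2 were chosen after their values were seen. The comparison, its genes and its 47 lists were chosen with earlier results of these data known. Of 1009 list entries, 998 matched directly and 3 through another symbol. Promoters were read from RefSeq windows on GRCm38.p6 and matched by symbol for 978 of the 1321 called genes. Some genes are not reported here.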

Additional observations from a re-analysis of the deposited data

Results flagged for a closer look

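Single libraries stood apart in several named genes: of 62 groups of 4 or 5 colon libraries examined over 31 genes, 10 held a value far from the others of its group by Dixon's test. Each of the 10 was a high value. Chance gives about 1 in 20 only for independent, normally distributed values, which reads of genes that move together need not be. In the KO early group mouse 118 was the high library of S100a8 (3945), S100a9 (1379), Cxcl5 (3078), Lrg1 (1835.5) and Lcn2 (116). In the WT group mouse 61 was the high library of S100a8 (28.3) and S100a9 (34.2), mouse 75 of Reg3g (796) and Reg3b (3606), and mouse 72 of Mptx1 (53568). The KO late group of 3 was too small for this test.

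The KO late minus WT difference was not the same in colon and ileum for 10 named genes, by limma's test of the difference itself. On the log2 scale it was larger in colon by 9.53 for S100a8, 7.73 for Clca4b, 6.96 for S100a9, 6.42 for Cxcl3 and 6.12 for Reg3g. It was lower in colon for Ang4 (-6.43), Mptx1 (-6.10), Sult1a1 (-4.65), Prss23 (-4.52) and Pck1 (-4.49). The calls of Cxcl3, S100a9, Mptx1, Sult1a1 and Pck1 were lost with some single mice left out (largest adjusted p 0.14, 0.196, 0.088, 0.133 and 0.158).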

How the results depend on the processing

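The count of 1321 genes called in colon was 2806 by DESeq2, 788 with WT as the mean of its 2 control groups, 197 with irradiated and 476 with non-irradiated WT as the only control and 264 with the receptor covariate. Leaving out 1 library at a time gave 359 (KO mouse 50) to 6911 (WT mouse 75). Of alternatives chosen after seeing the data, leaving out WT mice 61 and 75 gave 9888, leaving out 59, 72 and 73 gave 222, and leaving out KO mouse 57 with WT mice 61 and 75 gave 10985. The 204 genes of the colon minus ileum difference became 447 by DESeq2, 784 with the mouse as replicate block, 43 to 210 with 1 library left out, and, chosen after seeing the data, 4061 without the colon libraries of WT mice 61 and 75. The replicate block changed no call of the 10 genes named for that difference. The counts moved by less than 1.5 times with edgeR (1284 and 140), with pseudocounts of 0.5 and 5 and with other filters and scalings. Over the named genes and alternatives of the colon comparison, 2780 values kept direction and call, 291 lost the call, 68 gained one and 1 changed sign: Acly, at -1.13 with all libraries, was at 0.0238 with the receptor covariate. For the tissue difference 136 kept the call and 23 lost it. The cause of these changes was not tested. Between irradiated and non-irradiated WT no alternative called a gene. Genes with few reads in WT, such as Cxcl3 and Lcn2, rest on low counts there, so the size of their change is imprecise.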

Other observations

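Genes outside the lists moved as well; those named here were chosen after their values were seen. Ubd, a ubiquitin-like modifier that inflammatory cytokines induce, was at 8099, 3921 and 5913 in KO late and 158, 259, 62.4, 1132 and 133 in WT (log2 difference 4.78 ± 0.68 (SE), adjusted p = 0.000999 by limma). Cytokine genes were among those higher: Il1a was at 248, 681 and 200.2 against 17.3, 29.7, 11.5, 10.9 and 26.5 (4.12 ± 0.49 (SE), adjusted p = 0.000296) and Tnf at 427, 795 and 1502 against 143, 91.4, 148, 151 and 93.2 (2.70 ± 0.48 (SE), adjusted p = 0.00434). Osmr, the receptor chain of oncostatin M, rose from 127 ± 38.2 (SD, n = 5) to 1788 ± 127 (SD, n = 3) (3.85 ± 0.34 (SE), adjusted p = 3.63e-05). The groups did not overlap in any of these 4, and each was called in every setting.

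Calcium entry channels rose, too. Trpv6 was at 1521, 1730.4 and 1772 in KO and 240.3, 132, 131, 372 and 138 in WT (3.17 ± 0.38 (SE), adjusted p = 0.000334), in every setting, and its neighbour and close relative Trpv5 at 403, 349.7 and 147 against 22.2, 41.6, 12.7, 34.2 and 58.7 (3.15 ± 0.49 (SE), adjusted p = 0.00182). Slc28a3, a nucleoside carrier, rose from 181 ± 28 (SD, n = 5) to 2177 ± 628 (SD, n = 3) (3.55 ± 0.32 (SE), adjusted p = 3.63e-05). On the falling side Bmp3, a bone morphogenetic protein, was at 448, 159 and 304 against 1612, 1876, 1404, 1607 and 1706 (-2.55 ± 0.28 (SE), adjusted p = 0.000194), and Hpgd, which inactivates prostaglandins, fell from 3113 ± 369.8 (SD, n = 5) to 686 ± 187 (SD, n = 3) (-2.21 ± 0.31 (SE), adjusted p = 0.000992). Both were called in every setting. Selenbp1, a selenium-binding protein of mature colonocytes, was at 382, 219.8 and 798 against 5352, 2452, 4513, 5722 and 2305 (-3.22 ± 0.52 (SE), adjusted p = 0.0024), and was called in 23 of the 25 settings.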
